A study of Mus musculus with 17 samples.

Results

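The genes described here are 10 adipogenic factors and lipid-handling genes, Cebpa, Cebpb, Cebpd, Pparg, Adipoq, Fabp4, Lpl, Apoe, Cd36 and Plin1. They were chosen by name and not by a cut on a measured value, but with earlier results of these data known. All 10 were found among the 55335 genes of the count files. Their RNA was measured by bulk sequencing in 17 libraries of 2 cell types sorted from mouse bone, osteoprogenitor cells (OPCs) and skeletal stromal cells (SSCs). The mice carried no copy (WT, Cxcr4+/+), a single copy (+/1013) or both copies (1013/1013) of the Cxcr4 1013 allele, a knock-in that truncates the tail of the chemokine receptor and makes it resist desensitization. Each library came from a pool of 3000 cells of 3 mice. The study describes its mice as female littermates of 8 to 12 weeks unless stated otherwise, with no treatment. There were 3 libraries for each cell type and genotype, except for 1013/1013 SSCs with 2. Both cell types lacked blood, erythroid and endothelial surface markers and carried CD51. SSCs were also Sca-1+ and PDGFRα+, whereas OPCs were Sca-1-. Cells came from the flushed and collagenase-digested bone, not from the marrow.

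Fat cells and bone-forming cells both arise from marrow stromal cells. During fat cell formation, C/EBPβ and C/EBPδ, the transcription factors encoded by Cebpb and Cebpd, act early and induce C/EBPα (Cebpa) and the nuclear receptor PPARγ (Pparg), which maintain the fat cell program. PPARγ and C/EBPα then drive the genes of mature fat cells, among them the hormone adiponectin (Adipoq), the fatty acid carrier FABP4 (Fabp4), the lipid droplet coat protein perilipin (Plin1) and the fatty acid receptor CD36 (Cd36). Lipoprotein lipase (Lpl) frees fatty acids from circulating triglycerides, and apolipoprotein E (Apoe) carries lipid between cells. Several of these genes are not restricted to fat cells. Fabp4 and Cd36 are also made by capillary endothelium, Apoe and Cd36 by macrophages, and Cebpb and Cebpd respond to inflammation, glucocorticoids and stress.

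An OPC library held 64099849 to 92683497 gene counts and an SSC library 44217695 to 50509592, and 3 counts, the floor of detection here, were worth 0.0324 to 0.0468 CPM (reads of a gene relative to its library's size) in OPCs and 0.0594 to 0.0678 CPM in SSCs. The floor reflects counting error alone, because reads amplified by PCR were not collapsed to molecules. Levels below are CPM after trimmed mean of M values (TMM) normalisation over all 17 libraries. Ly6a, which encodes Sca-1, ran from 386 to 1450 CPM in SSC libraries and from 0.569 to 12.4 CPM in OPC libraries, and the bone gene Bglap ran from 497 to 2984 CPM in OPCs and from 5.15 to 50.1 CPM in SSCs. Neutrophil markers stood far above the rest in OPC WT replicate 3, OPC 1013/1013 replicate 2 and SSC WT replicate 3, at a summed 21090, 14250 and 8268 CPM, against 9.22 to 813 CPM in the other 14 libraries. Summed endothelial markers were highest in SSC +/1013 replicate 1 and SSC 1013/1013 replicate 1, at 170 and 173 CPM, against 7.33 to 72.4 CPM elsewhere. In SSCs, the WT libraries also differed from both mutants in their make-up, with 21449 to 22599 genes detected against 15748 to 19227, and at least 3.68% of reads on no gene against at most 2.69%. This difference between libraries cannot be told apart from the effect of genotype.

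In mm10 with the GENCODE M21 annotation, Cebpa (chr7:35119293-35121928), Cebpb (chr2:167688915-167690418), Cebpd (chr16:15887286-15891031), Pparg (chr6:115360951-115490399), Adipoq (chr16:23146536-23158028) and Lpl (chr8:68880491-68907448) lie on the plus strand. Fabp4 (chr3:10204088-10208576), Apoe (chr7:19696109-19699188), Cd36 (chr5:17781690-17888801) and Plin1 (chr7:79720218-79732903) lie on the minus strand. RefSeq promoter windows (build GRCm38.p6) were at hand for 7 of the 10 genes, in 11 windows, and the 250 bases before each start were searched for TTNNGCAA, a short form of the site that C/EBP proteins recognise, on both strands. It lay in 2 of these 11 windows, 1 each of Pparg and Plin1, and in 9.56% of all 32851 promoter windows of this length. Both are shown because they are classical fat cell genes, beside Apoe, the most abundant of the 10, which has no match in any of its 3 windows. Capitals mark the matches, and all are read 5′ to 3′ on the strand of the gene. The Pparg window belongs to the most downstream of its 3 listed starts, at chr6:115421816-115422065 on the plus strand, and its matches begin 215 and 16 bases before that start.
Pparg: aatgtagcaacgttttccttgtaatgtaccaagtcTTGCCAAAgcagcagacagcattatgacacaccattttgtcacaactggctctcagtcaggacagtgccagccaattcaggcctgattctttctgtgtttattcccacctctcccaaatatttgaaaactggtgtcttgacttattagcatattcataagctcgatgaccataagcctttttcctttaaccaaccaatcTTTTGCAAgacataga
The Plin1 window is chr7:79732777-79733026 on the minus strand, with matches that begin 187 and 58 bases before the start.
Plin1: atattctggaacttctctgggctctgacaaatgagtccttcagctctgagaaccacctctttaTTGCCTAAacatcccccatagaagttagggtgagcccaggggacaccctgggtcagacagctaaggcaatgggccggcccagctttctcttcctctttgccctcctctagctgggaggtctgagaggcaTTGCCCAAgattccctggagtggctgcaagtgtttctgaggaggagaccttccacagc
The Apoe window is chr7:19699189-19699438 on the minus strand, before the most upstream of its starts.
Apoe: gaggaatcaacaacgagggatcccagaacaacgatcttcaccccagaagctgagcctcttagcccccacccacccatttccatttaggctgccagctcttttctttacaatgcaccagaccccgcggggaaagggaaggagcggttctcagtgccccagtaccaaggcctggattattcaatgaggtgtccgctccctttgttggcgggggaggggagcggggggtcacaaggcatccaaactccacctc
A match of these letters is not a measured binding site, and windows of Cebpd, Fabp4 and Lpl are not shown here.

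The share of all counts that fell on the 10 genes was 0.0299% to 0.220% in OPCs and 0.0783% to 0.331% in SSCs. Levels of different genes were compared per kilobase of transcript. Apoe was the most abundant in both cell types, at 456 ± 309 CPM per kb (SD, n = 9 libraries) in OPCs and 620 ± 346 (n = 8) in SSCs. The early factors Cebpb and Cebpd followed, at 76.1 ± 37.5 and 70.9 ± 46.0 CPM per kb in OPCs and at 104 ± 56.7 and 90.7 ± 56.0 in SSCs, and these neighbours did not differ beyond their spread. Lpl came next, at 10.6 ± 6.39 CPM per kb in OPCs and 62.5 ± 45.7 in SSCs. Fabp4, Cd36 and Adipoq were at 2.21 ± 2.82, 2.32 ± 2.87 and 2.45 ± 2.68 CPM per kb in OPCs and at 25.6 ± 38.6, 6.50 ± 6.07 and 4.18 ± 5.58 in SSCs, with ranges over libraries that overlapped in each cell type. The late factors were low, Cebpa at 1.76 ± 0.611 and 1.30 ± 0.457 CPM per kb in OPCs and SSCs and Pparg at 0.405 ± 0.559 and 3.30 ± 1.16. Plin1 closed the order at 0.00869 ± 0.0120 and 0.0505 ± 0.0994 CPM per kb. The early factors and Apoe were thus abundant, whereas the late factors and genes of mature fat cells were low, with the exception of Fabp4 in a pair of SSC libraries described below.

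**Figure D1:**
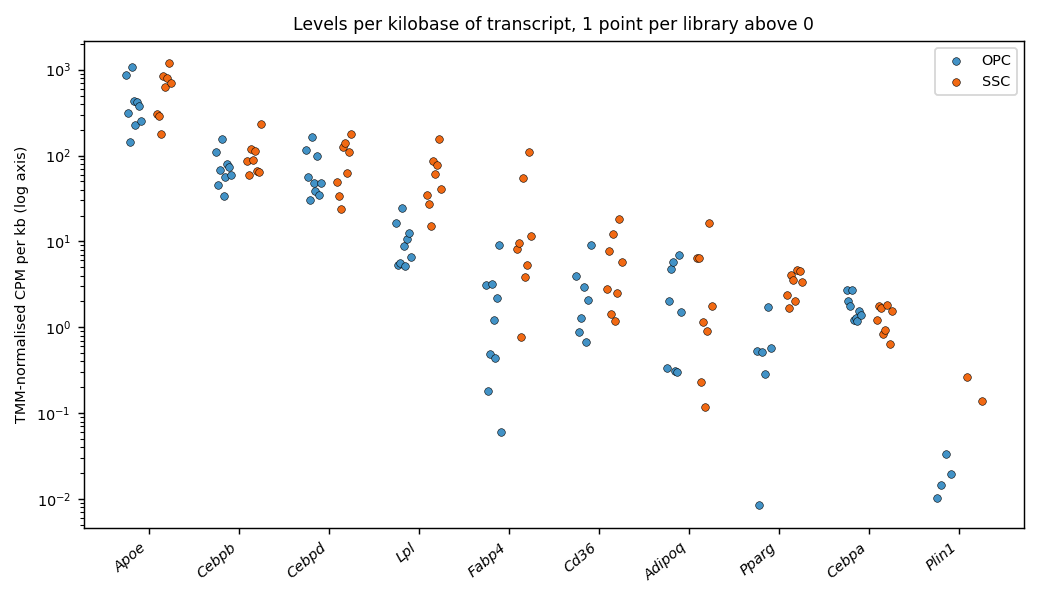
Levels of the 10 genes per kilobase of transcript (vertical log axis, TMM-normalised CPM per kb) in OPC (blue) and SSC (orange) libraries, 1 point per library, with libraries at 0 left out. Apoe lies highest at a mean of 456 in OPCs and 620 in SSCs, and Plin1 lowest.

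Plin1, the coat protein of the fat cell lipid droplet, had no count in any of the 6 WT libraries. It had at most 4 counts in an OPC library, and in SSCs it had 26 counts in +/1013 replicate 2, 14 in 1013/1013 replicate 2 and none elsewhere. No fold change is given for it, since the WT libraries of both cell types were at 0. Some other fat cell genes were at or near 0 too, but not all. Leptin (Lep) and the β3-adrenergic receptor (Adrb3) had no count in any of the 17 libraries, and the droplet protein Cidec stayed at 0 in all 9 OPC libraries and reached at most 1.4 CPM in an SSC library. Adipsin (Cfd) had 9.58 CPM in SSC WT replicate 1 and 14.0 CPM in SSC 1013/1013 replicate 1, and at most 2.59 CPM in the other 15 libraries. Slc2a4, the insulin-responsive glucose transporter, was at 0 in SSC 1013/1013 replicate 1 and at 1.5 to 6.16 CPM in the others. In these bulk samples, fewer cells of a type and less RNA per cell cannot be told apart.

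Cebpd, the early factor, stood at 433, 212 and 114 CPM in WT OPCs (replicates in order), at 620, 180 and 146 CPM in +/1013 OPCs and at 371, 132 and 181 CPM in 1013/1013 OPCs. The genotypes overlapped, and replicate 1 was the highest library of each. In SSCs the 3 WT libraries had 185, 128 and 90.5 CPM, the +/1013 libraries 475, 519 and 236 CPM and the 1013/1013 libraries 415 and 671 CPM. Every mutant SSC library thus exceeded every WT one. Cebpb, its close relative, stood at 167, 69.2 and 102 CPM in WT, at 236, 51.2 and 84.5 CPM in +/1013 and at 120, 111 and 89.6 CPM in 1013/1013 OPCs. In SSCs it had 131, 90.2 and 181 CPM in WT, 135, 171 and 100 CPM in +/1013 and 96.7 and 351 CPM in 1013/1013 libraries, so that its groups overlapped throughout.

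The late factor Cebpa stood at 6.49, 4.84 and 4.19 CPM in WT, at 6.58, 2.91 and 3.06 CPM in +/1013 and at 2.87, 3.68 and 3.31 CPM in 1013/1013 OPCs. The 1013/1013 OPC libraries lay below all WT ones, by a small margin. In SSCs Cebpa had 2.88, 4.19 and 4.03 CPM in WT, 2.02, 2.22 and 4.35 CPM in +/1013 and 1.54 and 3.67 CPM in 1013/1013 libraries, which overlapped. Pparg was seen with more than 3 counts in 5 of 9 OPC libraries and in 8 of 8 SSC libraries. Its OPC levels were 0, 0.958 and 0 CPM in WT, 0.0154, 0.932 and 0.524 CPM in +/1013 and 0, 3.18 and 1.04 CPM in 1013/1013 libraries. Its SSC levels were 4.37, 3.03 and 7.41 CPM in WT, 6.55, 3.72 and 8.56 CPM in +/1013 and 8.38 and 6.18 CPM in 1013/1013 libraries. Within each genotype all SSC libraries were above all OPC libraries, and within SSCs the genotypes overlapped.

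Apoe, the lipid carrier, had 971, 350 and 161 CPM in WT, 1188, 483 and 253 CPM in +/1013 and 475, 416 and 279 CPM in 1013/1013 OPCs. As for Cebpd, replicate 1 was the highest of each genotype, and the lowest library of the 9 was the leukocyte-rich WT replicate 3. Replicate 1 of WT, +/1013 and 1013/1013 OPCs also had the highest summed dissociation stress genes of its genotype (21820, 22230 and 27190 CPM). The same held for glucocorticoid-induced genes (1173, 1135 and 1478 CPM), while Col1a1 and Col1a2 took the lowest share of counts (31.5%, 25.6% and 16.1%). The part of these in the levels of Cebpd and Apoe was not tested. In SSCs Apoe had 337, 323 and 200 CPM in WT, 953, 701 and 897 CPM in +/1013 and 1340 and 786 CPM in 1013/1013 libraries, without overlap between WT and either mutant. Lpl, the lipase, had 67.2, 21.9 and 22.9 CPM in WT, 100.3, 36.8 and 21.4 CPM in +/1013 and 43.6, 51.5 and 27.3 CPM in 1013/1013 OPCs, which overlapped. In SSCs it had 143, 114 and 62.5 CPM in WT, 352, 248 and 322 CPM in +/1013 and 650 and 167 CPM in 1013/1013 libraries. All mutant SSC libraries were above the WT ones, 1013/1013 replicate 2 by a small margin that was lost in CPM without TMM, where it had 178 CPM and WT replicate 1 had 186 CPM.

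Fabp4, the fatty acid carrier, had 2.77, 0.162 and 0.440 CPM in WT, 2.89, 1.09 and 0.397 CPM in +/1013 and 1.97, 8.06 and 0.0548 CPM in 1013/1013 OPCs. In SSCs it had 7.26, 8.63 and 0.695 CPM in WT, 48.9, 3.45 and 4.77 CPM in +/1013 and 99.7 and 10.2 CPM in 1013/1013 libraries. A single library in each mutant group, replicate 1, carried most of its SSC signal. Cd36, the fatty acid receptor, had 10.7, 2.37 and 3.43 CPM in WT, 7.93, 1.83 and 0 CPM in +/1013 and 5.56, 24.6 and 0 CPM in 1013/1013 OPCs. In SSCs it had 7.66, 20.8 and 3.9 CPM in WT, 33.3, 3.24 and 6.78 CPM in +/1013 and 49.5 and 15.7 CPM in 1013/1013 libraries, again highest in replicate 1 of both mutants and overlapping between genotypes. Adipoq, the adiponectin gene, had 0.435, 2.65 and 0 CPM in WT, 6.16, 7.50 and 0.397 CPM in +/1013 and 0.388, 8.98 and 1.95 CPM in 1013/1013 OPCs. In SSCs it had 8.22, 8.30 and 0.300 CPM in WT, 1.51, 0.153 and 1.17 CPM in +/1013 and 21.3 and 2.31 CPM in 1013/1013 libraries, with WT libraries that themselves differed by over an order of magnitude.

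**Figure D2:**
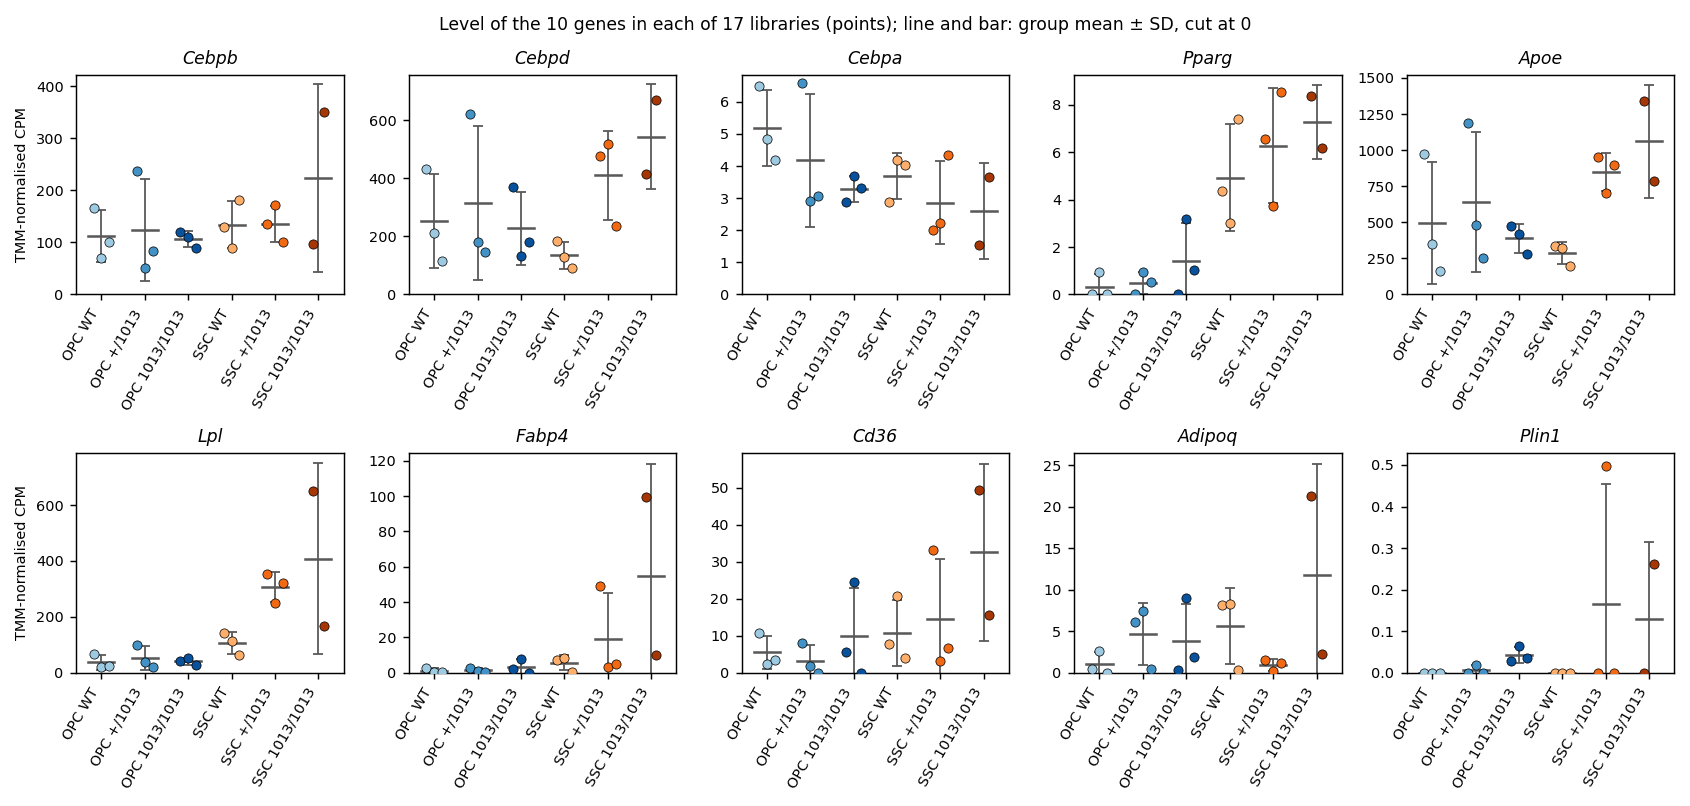
Each panel plots 1 gene on its own vertical axis (TMM-normalised CPM, from 0) with 1 point per library in the 6 groups, and a line and bar for the group mean ± SD. Cebpd, Apoe and Lpl are higher in all +/1013 and 1013/1013 SSC libraries than in WT SSCs, and Fabp4 reaches 48.9 and 99.7 CPM in single mutant libraries.

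The first comparison asked whether the Cxcr4 1013 allele altered these genes in OPCs, the cells committed to bone formation. No change was detected at this depth and number of libraries. Of the 9 genes tested (Plin1 had too few counts), 0 were called in +/1013 against WT, in 1013/1013 against WT or in 1013/1013 against +/1013, a call being an edgeR adjusted p under 0.05 with at least 1.5-fold change. The background was low as well, with 0% of 16207 genes called in +/1013 against WT, 0.00617% (a single gene) in 1013/1013 against WT and 0% in 1013/1013 against +/1013. At an unadjusted p under 0.05 none of the 9 passed in these comparisons, whereas 331, 548 and 513 of all genes did, and DESeq2 called none of the 9 and 68, 65 and 77 of all genes. The log2 fold changes of the 9 genes ran from -0.77 to 2.17 (SE 0.45 to 2.41), from -0.66 to 2.11 (SE 0.45 to 2.50) and from -0.72 to 1.63 (SE 0.45 to 2.45) in the 3 comparisons, with the widest errors for Pparg, Cd36 and Adipoq. Leaving out both leukocyte-rich OPC libraries left the count at 0. It was 0 with all libraries too, so this count cannot show the part of these libraries in the OPC levels.

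The same question in SSCs, the more immature stromal population, gave a different picture for 3 of the 10 genes. Cebpd, Apoe and Lpl were higher in all mutant than in all WT libraries, but none of these differences passed the adjusted threshold in edgeR. In +/1013 against WT, Cebpd was 3.02-fold higher (log2 fold change 1.59 ± 0.39 SE, edgeR adjusted p = 0.145). Apoe was 2.93-fold higher (1.55 ± 0.30, edgeR adjusted p = 0.113). Lpl was 2.86-fold higher (1.52 ± 0.51, edgeR adjusted p = 0.208). In 1013/1013 against WT the estimates were 4.06-fold for Cebpd (2.02 ± 0.42, edgeR adjusted p = 0.107), 3.77-fold for Apoe (1.91 ± 0.33, edgeR adjusted p = 0.0843) and 3.93-fold for Lpl (1.98 ± 0.56, edgeR adjusted p = 0.160). The value for Lpl depended on replicate 1, since its log2 fold change was 0.64 without that library (edgeR adjusted p = 0.588) and 2.59 without replicate 2 (edgeR adjusted p = 0.00886), where Apoe was called as well. Both comparisons share the 3 WT libraries. The edgeR count of called members was 0 of 10 in each, against 0.0736% of 17659 genes in +/1013 and 0% in 1013/1013.

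The call differed between tests. DESeq2, the tool named in the study's methods, called Cebpd and Apoe in +/1013 (DESeq2 adjusted p = 0.0115 and 0.00122) and Cebpd, Apoe and Lpl in 1013/1013 SSCs (DESeq2 adjusted p = 0.0022, 0.000176 and 0.0277), against a background of 8.14% and 11.4% of all genes. Fabp4 had no DESeq2 p-value and Plin1 no DESeq2 adjusted p in either comparison, so neither could be called by DESeq2. At an unadjusted p under 0.05 in edgeR, 3 of 10 members passed in each comparison, where 17.3% and 18.3% of all genes did. Members that were higher without overlap numbered 3 of 10 in +/1013, where 15.0% of all genes were, and 4 of 10 in 1013/1013, the fourth being Fabp4, where 16.4% were. The median log2 fold change of the 10 was 0.96 and 1.77, or 0.41 and 1.63 without Plin1, beside -0.11 and -0.23 for all genes tested. An exact permutation test of a single gene cannot go below a two-sided p of 0.1 for 3 against 3 libraries and of 0.2 for 3 against 2.

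The other SSC members had log2 fold changes from -2.57 (Adipoq, 1.37 SE) to 1.78 (Fabp4, 1.33 SE) in +/1013 and from -0.51 (Cebpa, 0.69 SE) to 3.36 (Fabp4, 1.49 SE) in 1013/1013, with edgeR adjusted p of at least 0.282. Without replicate 1 of the mutant, Fabp4 stood at -0.44 in +/1013 and 0.88 in 1013/1013. Pparg, at a log2 fold change of 0.32 ± 0.53 and 0.57 ± 0.59 SE, and Cebpb, at -0.01 ± 0.47 and 0.73 ± 0.52 SE, were not called, and Cebpb stood at -0.50 in 1013/1013 without replicate 2. Between the mutants themselves, 0 of 10 members and 0% of 17659 genes were called in SSCs (977 genes at an unadjusted p under 0.05, and 239 called by DESeq2). Adipoq alone reached an unadjusted p under 0.05 there, at 12.9-fold higher in 1013/1013 (3.69 ± 1.5, edgeR adjusted p = 0.788), with 21.3 and 2.31 CPM against 0.153 to 1.51 CPM. Without 1013/1013 replicate 1 the log2 difference was 1.29.

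Several other measures were compared between WT and mutant SSC libraries, and their part in the differences of Cebpd, Apoe and Lpl was not tested. Of the 17 dissociation stress genes, 2 were higher and 1 lower in +/1013 SSCs at an unadjusted edgeR p under 0.05. In 1013/1013 SSCs, 2 were higher and 0 lower. Il6 had 31.4 to 43.5 CPM in WT and 74.9 to 922 CPM in mutant SSC libraries. Fos had 4752 to 5305 CPM in WT, 5772 to 10630 CPM in +/1013 and 6737 to 9249 CPM in 1013/1013 libraries. Atf3 had 394 to 908 CPM in WT, 971 to 2684 CPM in +/1013 and 1022 to 2402 CPM in 1013/1013 libraries. Fosb went the other way, at means of 281, 153 and 189 CPM. The sum of the list overlapped, at 16170 to 20330 CPM in WT and 16390 to 31990 CPM in mutants. Its 17 genes had a median log2 fold change of 0.20 in +/1013 and 0.21 in 1013/1013. Of the 8 glucocorticoid-induced genes, 2 were higher and 1 lower at an unadjusted p under 0.05 in each mutant. The metallothionein Mt1 had 163 to 276 CPM in WT and 272 to 874 CPM in mutants, whereas the clock gene Per1 had 16.0 to 34.0 CPM in WT and 2.47 to 9.96 CPM in mutants. The 12 macrophage markers summed to 80.3 to 1637 CPM in WT and to 23.6 to 33.0 CPM in +/1013 and 213 to 518 CPM in 1013/1013 SSCs. All 8 neutrophil markers were lower in +/1013 than in WT SSCs at an unadjusted p under 0.05, and 3 of 8 in 1013/1013, with none called by edgeR. DESeq2 called 8 of 8 neutrophil markers lower in +/1013 and 3 of 8 in 1013/1013. It called 6 and 0 of the 12 macrophage markers lower. The DESeq2 background was 8.14% and 11.4% of all genes. Of the 9 stromal and osteogenic genes, 1 was higher and 3 were lower at an unadjusted p under 0.05 in each mutant. DESeq2 called 1 of them higher and 3 lower in +/1013, and 1 higher and 1 lower in 1013/1013. The sum of the 9 genes, most of it Col1a1, was 8737 to 12470 CPM in WT and 2891 to 5019 CPM in mutants. Ly6a went the other way, at 386 to 599 CPM in WT and 838 to 1450 CPM in mutants. Without both libraries richest in endothelial markers, or without the leukocyte-rich WT library, the number of members called stayed 0. It was 0 with all libraries too, so this count cannot show the part of these libraries in the differences.

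**Figure D3:**
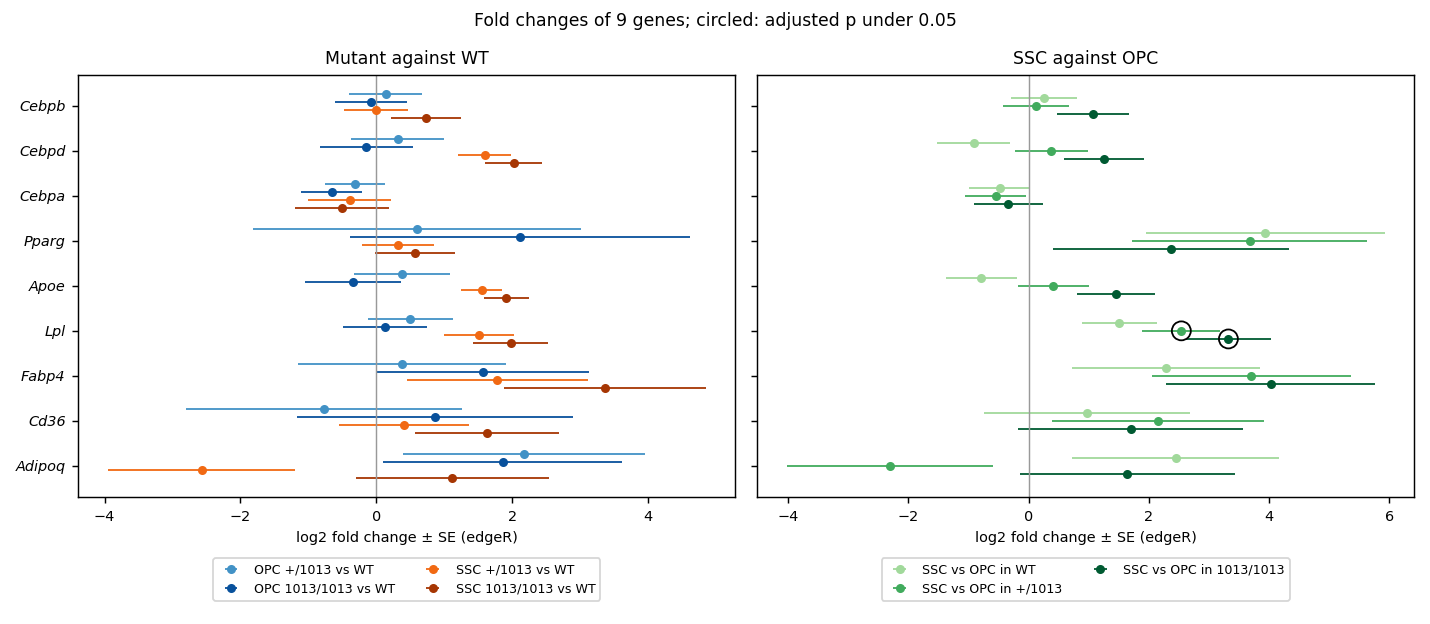
The horizontal axis gives the log2 fold change ± SE from edgeR for 9 genes (Plin1 is left out), at left for each mutant against WT in OPCs (blue) and SSCs (orange), at right for SSCs against OPCs in each genotype (green). Circles mark an adjusted p under 0.05, which Lpl alone reached, in +/1013 and 1013/1013 SSCs against OPCs.

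The comparison of SSCs with OPCs asked which of these genes mark the more immature cells. Lpl was higher in SSCs than in OPCs of both mutants, and it was the sole member called. It was 5.82-fold higher in SSCs than OPCs of +/1013 mice (2.54 ± 0.65, edgeR adjusted p = 0.0201) and 10.01-fold higher in 1013/1013 mice (3.32 ± 0.70, edgeR adjusted p = 0.00753), without overlap of libraries. In WT mice its 2.85-fold difference was not called (1.51 ± 0.63, edgeR adjusted p = 0.139), and the libraries overlapped, with 62.5 CPM in SSC replicate 3 and 67.2 CPM in OPC replicate 1. Same-numbered WT OPC and SSC libraries deviated together, and with the replicate block Lpl was called in WT too (log2 fold change 1.64, edgeR adjusted p = 0.0313). Replicate 3 was leukocyte-rich in both WT cell types, and its part in these shared deviations was not tested. The Lpl calls in mutants do not show that the cell types differed more in mutants. Calls made up 11.4%, 12.5% and 13.1% of 20238 genes in WT, +/1013 and 1013/1013 mice, beside 0, 1 and 1 of 10 members.

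The Lpl call was lost without single libraries in both mutants. In +/1013 mice the edgeR adjusted p was 0.0810 without OPC replicate 2, 0.0784 without OPC replicate 3 and 0.0548 without SSC replicate 1. In 1013/1013 mice it was 0.140 without SSC replicate 1, where the log2 fold change was 2.03, and the latter was 4.05 without SSC replicate 2. In +/1013 mice it was 3.38 without OPC replicate 1. Fabp4 was 13.1-fold higher in SSCs than OPCs of +/1013 mice (3.71 ± 1.65, edgeR adjusted p = 0.164) and 16.3-fold higher in 1013/1013 mice (4.03 ± 1.74, edgeR adjusted p = 0.146), without overlap. Without SSC replicate 1 its log2 fold change was 1.5 in +/1013 and 1.61 in 1013/1013 mice. Apoe was 2.73-fold higher in SSCs of 1013/1013 mice (1.45 ± 0.65, edgeR adjusted p = 0.161). Pparg was 15.3-fold, 12.8-fold and 5.17-fold higher in SSCs of WT, +/1013 and 1013/1013 mice. It did not pass either (log2 SE 1.98, 1.96 and 1.96, edgeR adjusted p = 0.220, 0.239 and 0.428). Its libraries did not overlap in any genotype. Another variant of the edgeR fit, bias-adjusted, did call Pparg in WT and +/1013 mice. Cebpd was 2.38-fold higher in SSCs of 1013/1013 mice without overlap (1.25 ± 0.67, edgeR adjusted p = 0.232). The remaining members had log2 differences from -2.31 to 2.44, with edgeR adjusted p of at least 0.255. Members higher in SSCs without overlap numbered 1, 3 and 5 of 10 in WT, +/1013 and 1013/1013 mice. The share of all genes without overlap was not counted between cell types, so this cannot be weighed against a background. At an unadjusted edgeR p under 0.05, 5412, 5577 and 5726 of 20238 genes passed.

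Whether the 1013 allele acted differently in SSCs and OPCs was tested as a difference of differences over all 17 libraries. None of the 10 members was called, against 0.0840% of 20238 genes for +/1013 and 0.153% for 1013/1013. The nearest were Apoe and Cebpd in 1013/1013 mice. The log2 fold change against WT was higher in SSCs than in OPCs by 2.23 ± 0.88 SE for Apoe (edgeR adjusted p = 0.276) and by 2.16 ± 0.90 SE for Cebpd (edgeR adjusted p = 0.297). Both passed an unadjusted p under 0.05, as did 3037 of all genes. For Lpl this difference did not reach that mark in either mutant, so that neither the higher level of Lpl in mutant SSCs nor that of the others was shown to be particular to SSCs.

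The libraries with the most Fabp4 and Cd36 also had the highest sums of endothelial markers. SSC +/1013 replicate 1 had 35.0 CPM of Pecam1 and 19.3 CPM of Cldn5, against at most 8.94 and 0.391 CPM in the SSC libraries outside both mutant replicates 1. In SSC 1013/1013 replicate 1 the largest marker was Tek, at 86.6 CPM, which also had 59.2 CPM in +/1013 replicate 3. That library had 30.9 CPM of Egfl7 and 20.5 CPM of Sox18, the highest of the 17, but 1.89 CPM of Pecam1 and 0.0367 CPM of Cldn5, within the range of the other SSC libraries. Gpihbp1, the endothelial protein that anchors lipoprotein lipase in capillaries, had 13 and 13.8 CPM in these libraries and at most 1.69 CPM in the other 15. Lpl was highest in the same libraries within each mutant group, at 352 and 650 CPM. In both other +/1013 libraries it stood at 248 and 322 CPM, with Gpihbp1 at 0.556 and 0 CPM. Over the 10 endothelial markers the sum ran from 33.3 to 60.7 CPM in WT, from 29.1 to 170 CPM in +/1013 and from 50.4 to 173 CPM in 1013/1013 SSCs, and from 7.33 to 72.4 CPM in OPCs. The part of endothelial RNA in the levels of Fabp4, Cd36 and Lpl was not tested.

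**Figure D4:**
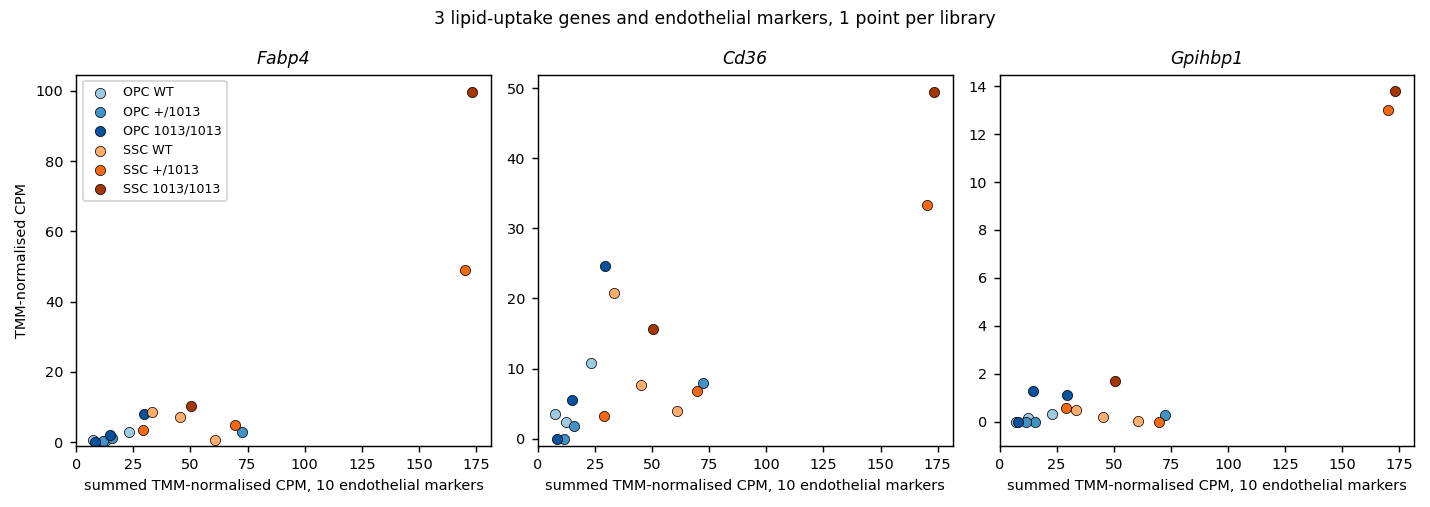
Fabp4, Cd36 and Gpihbp1 (vertical axes, TMM-normalised CPM) are plotted against the summed level of 10 endothelial markers (horizontal axis, TMM-normalised CPM), 1 point per library, coloured by group. SSC +/1013 replicate 1 and SSC 1013/1013 replicate 1 stand apart at right, at 170 and 173 CPM of markers, and are the highest in all 3 genes.

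Beyond the 10 genes, 83 others in 7 lists of fat cell formation and lipid handling were measured. In OPCs, 0 of 73 tested were called between genotypes in any of the 3 comparisons, and in SSCs 0 of 77, where edgeR called 0.0736% of all genes in +/1013 and 0% in 1013/1013 against WT. At an unadjusted p under 0.05, 6 were higher and 6 lower in +/1013 SSCs and 8 were higher and 3 lower in 1013/1013 SSCs, beside 17.3% and 18.3% of all genes. DESeq2 called 0 higher and 2 lower in +/1013 and 4 higher and 1 lower in 1013/1013, beside 8.14% and 11.4% of all genes. The median log2 fold change of the 77 was -0.08 and 0.05, beside -0.11 and -0.23 for all genes. Apod, a lipocalin that binds small lipids, had 857, 1250 and 401 CPM in WT, 2500, 2420 and 2320 CPM in +/1013 and 14000 and 2210 CPM in 1013/1013 SSCs, without overlap between WT and mutants. It was not called between genotypes by edgeR, and it was picked out for this comparison after its values were seen.

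Between cell types the same lists differed more. Of 78 tested genes, 14 were called in WT, 14 in +/1013 and 18 in 1013/1013 mice (17.9%, 17.9% and 23.1%), beside 11.4%, 12.5% and 13.1% of all genes. Among regulators of fat cell formation, 4 of 16 were called higher and 0 lower in SSCs of WT mice. Ebf2, a factor of preadipocyte commitment, was 23.0-fold higher (4.53 ± 0.91, edgeR adjusted p = 0.00562), at 47.5 against 2.05 CPM. Its relative Ebf1 was 5.31-fold higher (2.41 ± 0.41, edgeR adjusted p = 0.00219) and Zfp423, which commits preadipocytes, was 3.27-fold higher (1.71 ± 0.33, edgeR adjusted p = 0.00489). Nr3c1, the glucocorticoid receptor, was 2.13-fold higher (1.09 ± 0.32, edgeR adjusted p = 0.0395). The same list gave 3 and 4 higher and 0 lower in +/1013 and 1013/1013 mice, with Ebf1 and Ebf2 called in all genotypes, the zinc finger factor Klf5 in both mutants (log2 fold change 2.62 and 2.31) and Nr1h3, the oxysterol receptor LXRα, in 1013/1013 mice (5.82-fold, 2.54 ± 0.59, edgeR adjusted p = 0.0132). The Nr1h3 call was lost without SSC replicate 1 (log2 fold change 1.06, edgeR adjusted p = 0.371), and without SSC replicate 2 it stood at 3.31. Ebf2 in WT stood at 5.71 without OPC replicate 1.

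Lipid receptors went both ways. Lrp1, a receptor that takes up Apoe-bearing particles, was 4.69-fold higher in WT SSCs than OPCs (2.23 ± 0.46, edgeR adjusted p = 0.00645). The lipoprotein receptors Scarb1 and Vldlr fell to 0.158 and 0.258 of the OPC level (log2 fold changes -2.67 ± 0.41 and -1.96 ± 0.39, edgeR adjusted p = 0.00103 and 0.00523). Of 16 genes of lipid uptake and transport, 1 was called higher and 3 lower in WT, 1 and 2 in +/1013, and 3 and 2 in 1013/1013 mice. There Apod was 61.2-fold higher (5.94 ± 1.22, edgeR adjusted p = 0.00646) and Angptl4, an inhibitor of lipoprotein lipase, 4.68-fold higher (2.23 ± 0.53, edgeR adjusted p = 0.0151). Without SSC replicate 1 neither was called, at a log2 fold change of 4.06 for Apod (edgeR adjusted p = 0.0682) and 1.78 for Angptl4 (edgeR adjusted p = 0.137), and Apod stood at 6.53 without OPC replicate 1 and 6.77 without SSC replicate 2. Inhibitors of fat cell formation were called in both directions, with the corepressor Ncor1 higher in SSCs of all genotypes (2.33-fold in WT) and the pseudokinase Trib2 lower (0.297 of the OPC level in WT). The Notch target Hes1 was called higher in WT and +/1013 mice (log2 fold change 1.30 and 1.20), the stress factor Ddit3 in +/1013 mice (1.51), and the nuclear receptor Nr2f2 and the deacetylase Sirt1 in 1013/1013 mice (2.69 and 1.46). Lmf1, which matures lipoprotein lipase, and the adiponectin receptor Adipor1 were called lower in WT SSCs (log2 fold change -1.11 and -0.89). Lepr, which marks marrow stromal cells with fat cell potential, was 4.53-fold higher in WT SSCs (2.18 ± 0.33, edgeR adjusted p = 0.00108). Gas6, a ligand of TAM receptors, was called in all genotypes (log2 fold change 2.34, 2.08 and 2.56 in WT, +/1013 and 1013/1013) and Cxcl12, the ligand of Cxcr4, in +/1013 and 1013/1013 mice (2.94 and 3.04). Lepr, Gas6 and Cxcl12 belong to a list of 9 marrow stromal genes that went both ways. Of these 9, 3, 4 and 4 were lower in SSCs of WT, +/1013 and 1013/1013 mice, with 0 called lower by edgeR. In WT, Vcam1 averaged 64.5 CPM in SSCs against 276 CPM in OPCs, and Agt 18.1 against 62.3 CPM. No gene of triglyceride synthesis was called in any genotype, and of the droplet and lipolysis genes Mgll, a monoglyceride lipase, was called higher in 1013/1013 mice (2.12-fold, 1.08 ± 0.33, edgeR adjusted p = 0.0428), beside 1 gene with a mean under 1 CPM called lower in each mutant.

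Of the 14, 13 and 16 genes of these lists named as called in WT, +/1013 and 1013/1013 mice, 9, 5 and 5 stayed called whichever library of the groups compared was left out. These were Ebf1, Ebf2, Scarb1 and Lepr in all genotypes, Trib2 in WT and +/1013, Ncor1 in WT and 1013/1013, and Zfp423, Lrp1 and Vldlr in WT. Every other call was lost without at least 1 library. Leaving out OPC replicate 1 raised Gas6 to 3.25 in WT and, in +/1013, Gas6 to 3.09, Klf5 to 3.38 and Cxcl12 to 4.05. In 1013/1013, Klf5 and Sirt1 were at 1.66 and 0.86 without SSC replicate 2, Nr2f2 at 1.64 without SSC replicate 1, 3.35 without SSC replicate 2 and 3.66 without OPC replicate 2, and Cxcl12 at 4.10 without OPC replicate 2.

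The lists of other cell types and of stress were compared in the same way, and their part in the levels above was not tested. Of 8 glucocorticoid-induced genes, 2, 1 and 2 were called higher in SSCs of WT, +/1013 and 1013/1013 mice, namely Tsc22d3 in all (log2 fold change 1.57, 1.26 and 1.07), Fkbp5 in WT (1.28) and Mt1 in 1013/1013 (3.68). Of 17 dissociation stress genes, Dusp1 was called in WT (1.22), Il6 in both mutants (6.99 and 5.17), Fosb lower in +/1013 (-1.75) and Nfkbia in 1013/1013 (2.02). Among endothelial markers Erg was called in WT (2.20) and Tek in 1013/1013 mice (3.71). Of these, Tsc22d3 in WT and +/1013 and Il6 in +/1013 stayed called whichever library was left out, and each other call was lost without at least 1 library. Without SSC replicate 2, Il6 stood at 5.67 in +/1013 and 2.73 in 1013/1013, and Mt1 at 2.78 and Nfkbia at 1.01 in 1013/1013, where Tek was at 2.21 without SSC replicate 1. Of 10 erythroid and platelet markers Itga2b was called in WT and +/1013 mice (2.43 and 1.81). No macrophage or neutrophil marker was called between cell types by edgeR. Of 9 stromal and osteogenic genes, 3 were higher and 5 lower in WT SSCs, with Ly6a up (6.80) and Bglap, Col1a1 and Sp7 down (-5.75, -4.80 and -3.98). With each library left out in turn, the calls of Sp7 in WT and Itga2b in +/1013 mice were lost in 4 of 6 fits. Those of Itga2b, Ly6a, Bglap and Col1a1 in WT stayed. Bglap stood at -5.01 without OPC replicate 3 and Sp7 at -4.62 without SSC replicate 2.

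Over the 12989 genes that averaged 1 CPM or more, the pattern most like that of Lpl over the 17 libraries was that of Entpd2, an ectonucleotidase, at a root mean square difference of 0.33 between gene-centred log2 levels, where Lpl itself varied by 1.47. Cyb5a, a cytochrome b5, stood at 0.40. Entpd2 averaged 27.6, 38.1 and 19.7 CPM in WT, +/1013 and 1013/1013 OPCs and 78.6, 206 and 224 CPM in SSCs. Cyb5a was likewise lower in OPCs, at means of 38.9, 39.6 and 34.2 CPM, and had means of 113, 219 and 283 CPM in WT, +/1013 and 1013/1013 SSCs.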

How the data were processed

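Raw read counts per gene were analysed for 17 libraries in 6 groups. Per the labels and the study's methods, the authors made SMART-Seq v4 cDNA from 400 to 1000 pg of RNA, which copies polyadenylated RNA without marking strand, built Nextera XT libraries from 600 pg of cDNA, removed short reads, aligned the rest to mm10 with STAR and counted with HTSeq. Tool versions, annotation release and counting settings are not given in the sources used here. The deposited counts are whole numbers without normalisation. The 5 special counters were left out of library sizes, and reads on no gene made up at most 2.62% in OPCs and 4.16% in SSCs. Reads of overlapping genes cannot be assigned by strand. Of 55335 identifiers, 55154 matched GENCODE M21 by name, which also gave the median transcript length used for levels per kilobase.

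Genes were tested with the quasi-likelihood fit of edgeR 4.0.16 (limma 3.58.1, R 4.3.3, legacy = TRUE, filterByExpr, TMM), with the 3 genotypes of a cell type in one fit, and with all 17 libraries for comparisons between cell types, without covariates. Benjamini-Hochberg adjustment ran over all genes tested. DESeq2 1.42.0, the authors' tool, was an alternative, because edgeR on counts was the preset main test. The standard error is the absolute log2 fold change divided by the square root of F. Libraries are pools, and nothing states that they came from separate days, so p-values measure the spread between these samples. Same-numbered libraries were taken as paired where every pair's deviations from the group means correlated above 0.1. This held for WT SSCs and OPCs (0.135, 0.246 and 0.402) and for 1013/1013 against +/1013 OPCs (0.168, 0.129 and 0.227). The WT libraries of replicate 3, at 0.402, were leukocyte-rich in both cell types. The part of leukocyte RNA in the WT correlations was not tested, so they do not show that the libraries came from the same mice. The main tests did not use this pairing. The replicate block was an alternative that took in all libraries of a fit, including groups without such correlation. The tests were also run on simulated counts with changes of known size. These had no leukocyte-rich or endothelial-rich libraries, and the outcome is not given here.

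All 10 members are given with every library. Fold changes with a test are given where a member was called or had an unadjusted p under 0.05, and other members by their range or as examples. Other lists are given by counts and by up to 4 called genes a list and comparison, taking the largest absolute log2 fold changes among genes that average 1 CPM or more. The 3 genes most like Lpl were sought on log2(CPM + 1), and 1 of them is not reported here. The lists were 7 of fat cell formation and lipid handling (83 genes), and glucocorticoid-induced (8), dissociation stress (17), macrophage (12), neutrophil (8), endothelial (10), erythroid and platelet (10) and stromal and osteogenic (9) genes. The members and lists were chosen with earlier results of these data known. No duplicate libraries were found.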

Additional observations from a re-analysis of the deposited data

How the results depend on the processing

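In the OPC comparisons, the difference of differences and 1013/1013 against +/1013 SSCs, the number of members called was 0 under every alternative run. DESeq2 called 2 members in +/1013 and 3 in 1013/1013 SSCs against WT, where edgeR called 0. Leaving out a library in turn gave 0 to 2 in 1013/1013 SSCs against WT, with Apoe and Lpl called without replicate 2 (edgeR adjusted p = 0.00725 and 0.00886), where the lone 1013/1013 library is assumed to vary like the other groups. For SSCs against OPCs it gave 0 to 1 in each genotype. In WT, the replicate block gave 1 (Lpl), the bias-adjusted fit 1 (Pparg), and leaving out OPC replicate 1 or 2 gave Lpl or Pparg. In +/1013 the bias-adjusted fit gave 2. In 1013/1013, a fit of only these groups gave 0, as did leaving out both endothelial-rich SSC libraries. This setting and the one without the leukocyte-rich libraries were chosen after seeing the data, and the latter changed no member's count. The replicate block changed no other member's call. The cause of these shifts was not tested. Of the members' fold changes other than Plin1, none of the 15 with an unadjusted p under 0.05 changed sign under an alternative, whereas 50 of the other 84 did. This contrast was largely set in advance, because a small p means a fold change far from 0 for its error. The 15 also share genes and libraries.

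Over all genes, the count moved more. With 0, 1 and 0 called in the OPC comparisons, the alternatives gave 0 to 68, 0 to 65 and 0 to 77. In SSCs, 13 in +/1013 against WT became 0 to 1396, 0 in 1013/1013 against WT became 0 to 2931 and 0 between mutants became 0 to 1812. The counts of 2931 and 1812, and the 1960 below, came without SSC 1013/1013 replicate 2. Between cell types, 2308, 2521 and 2642 became 1020 to 4092, 1469 to 4496 and 511 to 5018, and for the differences of differences, 17 and 31 became 0 to 504 and 0 to 1960. Of 120 group levels recomputed as CPM without TMM or outside type I collagen, 12 moved by more than 1 SD. A fit with 2 or 3 libraries a group and the depth given above detects large changes poorly where errors are wide. This held for Fabp4 and Cd36, and for Pparg where OPC libraries were compared. In +/1013 and 1013/1013 SSCs against WT, the log2 SE was 1.33 and 1.49 for Fabp4 and 0.96 and 1.06 for Cd36. For Pparg it was 0.53 and 0.59 there, against 2.41 and 2.50 in OPCs.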
